A study of Homo sapiens
Rattus norvegicus and Homo sapiens with 10 samples.

Results

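The 45 genes described here carry out DNA replication and DNA repair, and they were taken by symbol from the 62754 genes of the deposited table, where each symbol had 1 row. They fall into 30 replication genes and 15 repair and checkpoint genes. Bulk RNA was sequenced from U251N xenografts in the brain of adult female RNU/RNU rats. U251N is an established line from a human glioblastoma, and athymic rats accept it because they make few T cells. The 3 primary tumours came from rats implanted with 50000 U251N cells in the brain and were not ablated. The 3 recurrent tumours came from rats implanted the same way whose tumours were then heated by MRI-guided laser interstitial thermal therapy (LITT), about 24 hours after a localizing MRI, and followed until regrowth. The 3 tumour-free control libraries came from brain: the series' design text gives control replicate 1 as a graft that failed and the other two as procedural, and 1 library came from a culture of the line outside the animal experiment. All tumours stem from 1 cell line, the host keeps its innate immune cells, and no label states whether libraries and animals match 1 to 1, so p-values measure only the spread between these libraries, which may be technical.

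Before a cell divides, CDC6 and CDT1 load the ring-shaped MCM helicase at replication origins. The helicase is switched on with CDC45 and the GINS complex, and polymerases then copy both strands with the help of the sliding clamp PCNA. Most of these genes are transcribed under E2F factors around the entry into S phase, so their RNA is high in dividing cells and low in resting brain. Repair genes guard the copy: ATR and CHEK1 answer stalled forks, ATM and CHEK2 answer broken DNA, the BRCA and Fanconi anaemia proteins mend breaks and crosslinks, and PRKDC and XRCC5 join broken ends. In glioblastoma, the repair protein MGMT undoes the damage made by alkylating drugs.

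Total estimated counts ran from 20321590 to 39714714 in the tumours and from 1358753 to 4158124 in the controls. The culture had 65058642. The graft percentage given in the labels was 42.52 to 64.4 in primary and 29.44 to 42.67 in recurrent tumours. Structural small RNA genes took 6.41% to 14.5% of the counts in tumours, against 92.6%, 89.8% and 31.7% in control replicates 1, 2 and 3. The 6 glioma cell markers, among them VIM and GFAP, were all detected in every group. They summed to 8202 to 9579 counts per 1000000 (CPM) of the counts outside structural small RNAs in tumours, and to 1118 to 9015 CPM in controls. Of 7 microglia and macrophage markers, 5 (AIF1, C1QA, CX3CR1, P2RY12 and PTPRC) were at 0 in all tumours, as were all 3 haemoglobin genes. The same 5 were also at 0 in all controls, and 4 of them in the culture, so these zeros do not set the tumours apart. The 7 markers summed to 24.1 to 31.4 CPM in tumours, 0 to 31.5 CPM in controls and 24.5 CPM in the culture. Of the host cell types, oligodendrocyte markers summed to 10.4 to 26.4 CPM in tumours and 70.8 to 3824 CPM in controls, and neuron markers to 859 to 1531 and 902 to 5082 CPM. Neuron markers also summed to 574 CPM in the culture.

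Regrown tumours were compared with unablated ones, the contrast the series was designed around. In bulk tissue, fewer cells of a type and less RNA per cell cannot be told apart. Of the 45 genes, 44 passed the filter on low counts, with at least 95 counts in each tumour, and 33 of these 44 (75%) had a positive log2 fold change of recurrent against primary, against 49% of the 15928 genes tested. None of the 44 was called by edgeR's quasi-likelihood test at an adjusted p under 0.05 (adjusted p from 0.521 to 0.99), where the share called over all genes was 0% higher and 0.00628% lower. With no adjustment, p was under 0.05 for 3 members (6.82%) higher and 0 lower in recurrent tumours, against 4.59% and 3.79% of all genes. DESeq2 and limma-voom also called 0 members (over all genes, DESeq2 called 0.365% higher and 0.243% lower and limma-voom 0% each way), with 4 members each at an unadjusted p under 0.05, or 9.09%, against 9.1% of all genes in DESeq2 and 8.86% in limma-voom. These shares at single-gene level lie near the background.

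**Figure D1:**
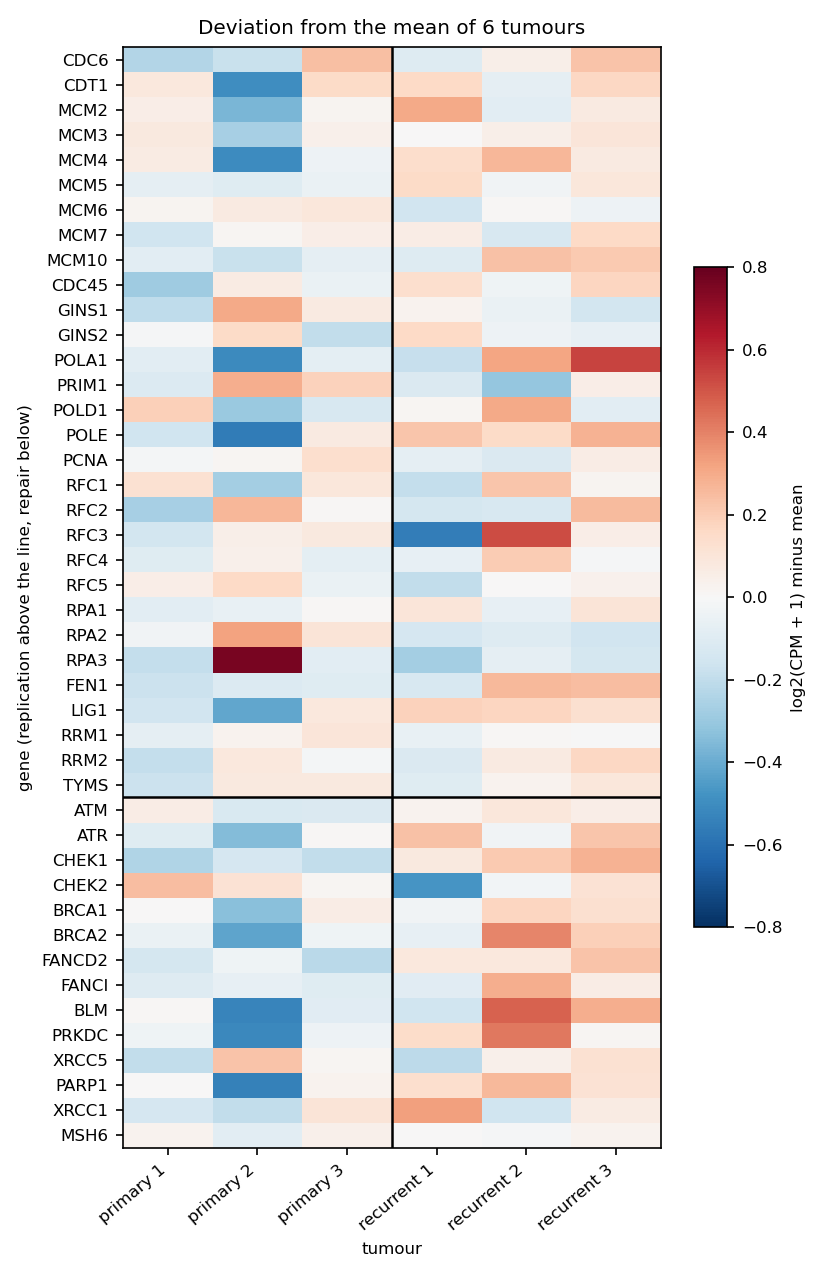
Each cell shows a member's log2(CPM + 1) in 1 tumour minus its mean over the 6 tumours, with CPM on the TMM-scaled total, replication genes above the line and repair genes below. Primary replicate 2 has the lowest value for 20 of 44 members (45.5%, against 28.8% of all genes) and the highest for 7 (15.9%, against 27.5%).

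The replication genes had a median log2 fold change of 0.09, with 21 of 30 members higher and values from -0.39 to 0.47. The repair genes had a median of 0.23, with 12 of 14 tested members higher and values from -0.26 to 0.43. The median over all tested genes was -0.01. With the library name prefix (IL or NL) as a covariate, a fit that sets recurrent replicate 1 alone against the primary tumours, the medians were -0.01 for replication and 0.09 for repair. With the graft percentage as a covariate they were 0.15 and 0.31.

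Groups that do not overlap were found for 10 members. In 8 of them (18.2%, against 7.94% of all genes) every recurrent tumour was above every primary tumour: MCM4, MCM5, POLE, LIG1, CHEK1, FANCD2, PRKDC and PARP1. In 2 of them, MCM6 and RPA2 (4.55%, against 7.42% of all genes), every recurrent tumour was below. All 10 missed the threshold, so the order of the tumours was not a called difference.

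**Figure D2:**
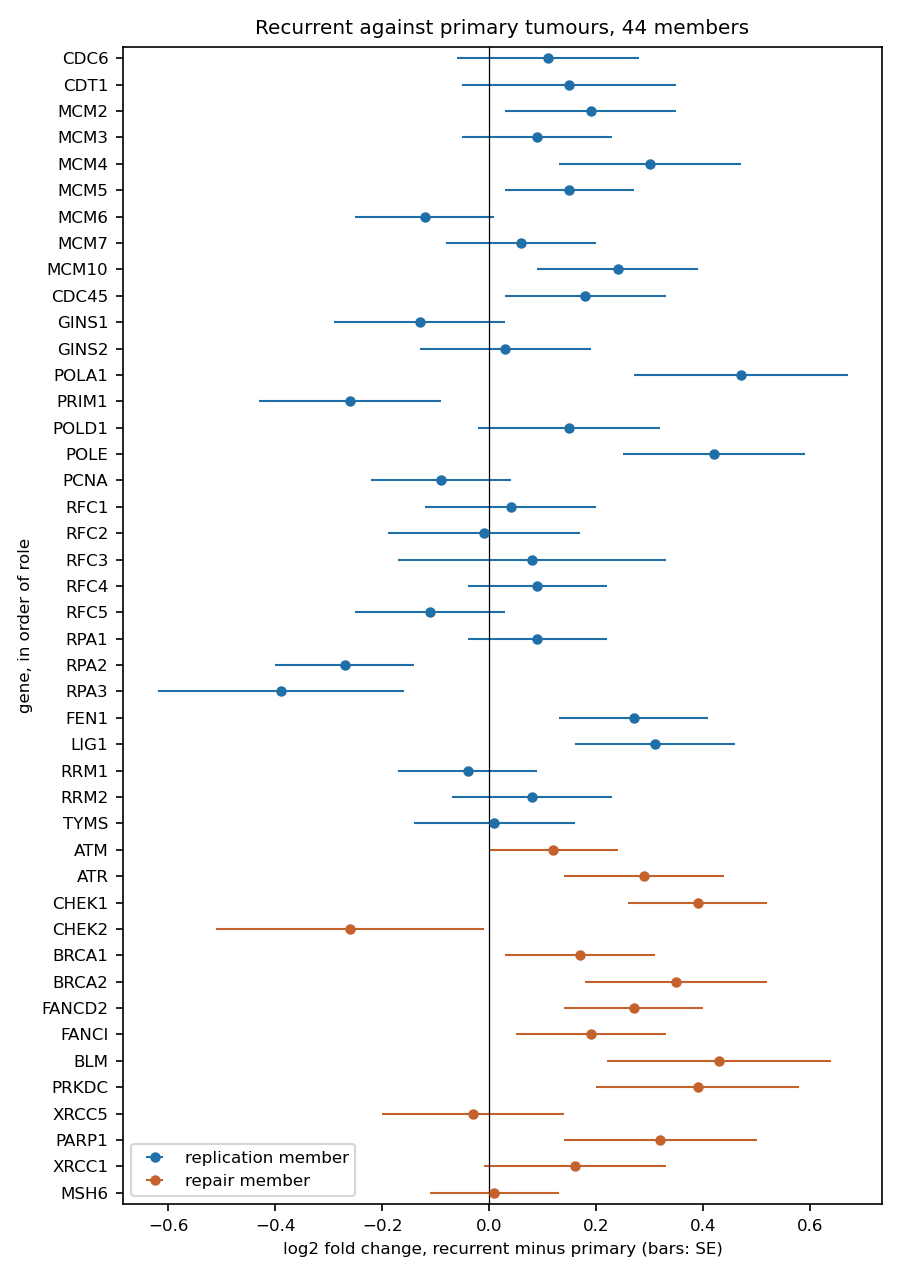
Points give the edgeR log2 fold change of recurrent minus primary tumours (3 against 3) for 44 members in order of role, and bars give 1 SE. Values run from -0.39 for RPA3 to 0.47 for POLA1, and no member passed the adjusted threshold.

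Among the genes that load and start the helicase, 10 of 12 had a positive log2 fold change, with a median of 0.13. MCM4, a subunit of the helicase ring (chromosome 8, 47960185 to 47978160, plus strand), stood at 229, 154 and 213 CPM in primary tumours against 242, 263 and 230 CPM in the recurrent tumours. The groups did not overlap, and the difference of 0.30 (SE 0.17) had an edgeR adjusted p of 0.647. Without primary replicate 2 it was 0.15. MCM10, which helps to assemble the working helicase, stood at 22.4, 20.8 and 22.5 CPM against 22.0, 28.1 and 27.6 CPM. Here recurrent replicate 1 lay among the primary tumours, and the log2 difference was 0.24 (SE 0.15, adjusted p = 0.67), or 0.01 with the prefix as a covariate. MCM5 and MCM6 sit in the same ring. MCM5 gave 110, 108 and 111 CPM against 128, 113 and 123 CPM, and MCM6 gave 148, 153 and 155 CPM against 131, 147 and 141 CPM. Their groups lay apart in opposite directions by small amounts, with log2 fold changes of 0.15 (SE 0.12) and -0.12 (SE 0.13).

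POLA1 and POLE had the highest fold changes of the replication genes and were the only replication members at an unadjusted p under 0.05. POLE, the catalytic subunit of the leading-strand polymerase (chromosome 12, 132623753 to 132687365, minus strand), stood at 49.2, 37.0 and 57.9 CPM in primary against 64.5, 61.4 and 66.9 CPM in recurrent tumours. All recurrent values were above all primary values, with a log2 fold change of 0.42 (SE 0.17, edgeR adjusted p = 0.574), or 0.26 without primary replicate 2. POLA1, the polymerase that extends the primer (chromosome X, 24693919 to 24996986, plus strand), stood at 69.6, 51.7 and 69.9 CPM against 64.9, 92.0 and 108 CPM. Its groups overlapped through recurrent replicate 1, and the log2 fold change was 0.47 (SE 0.20, adjusted p = 0.589). Without recurrent replicate 3, POLA1 was at 0.29. With the library name prefix as a covariate, POLA1 stood at 0.03 and POLE at 0.42. PRIM1, the primase subunit that lays the primer for POLA1, stood at -0.26 (SE 0.17), and POLD1, the lagging-strand polymerase, at 0.15 (SE 0.17).

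The sliding clamp, its loader and nucleotide supply differed little between the groups. PCNA gave 105, 107 and 117 CPM in primary against 101, 98.3 and 111 CPM in recurrent tumours, in overlapping groups (-0.09, SE 0.13), and the 5 loader subunits RFC1 to RFC5 had log2 fold changes from -0.11 to 0.09. RFC5, the loader subunit with the smallest p, stood at 39.3, 42.5 and 36.4 CPM against 32.9, 38.0 and 38.8 CPM, with overlapping groups. RRM1 and RRM2, the 2 subunits of ribonucleotide reductase, which makes the deoxynucleotides, stood at -0.04 (SE 0.13) and 0.08 (SE 0.15). RRM1 gave 147, 158 and 165 CPM against 148, 155 and 154 CPM. RRM2 stood at 193, 234 and 219 CPM in primary against 204, 232 and 248 CPM in recurrent tumours. TYMS, which makes thymidylate, stood at 0.01 (SE 0.15).

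Of RPA, the trimer that coats single-stranded DNA, the subunits RPA3 and RPA2 had the lowest fold changes of the replication genes. RPA3 (chromosome 7, 7636518 to 7718607, minus strand) stood at 44.9, 87.6 and 48.5 CPM in primary against 42.5, 48.9 and 46.7 CPM in recurrent tumours. The high value was that of primary replicate 2, and the log2 fold change of -0.39 (SE 0.23, edgeR adjusted p = 0.658) was -0.02 without that tumour. RPA2 stood at 67.7, 86.3 and 74.0 CPM against 62.8, 64.1 and 61.9 CPM, with groups that did not overlap and a log2 fold change of -0.27 (SE 0.13), or -0.17 without primary replicate 2. RPA1, the large subunit, stood at 0.09 (SE 0.13). FEN1 and LIG1, which trim and seal lagging-strand fragments, stood at 0.27 (SE 0.14) and 0.31 (SE 0.15). LIG1 was at 0.19 without primary replicate 2, and FEN1 at -0.004 with the prefix as a covariate. LIG1 stood at 35.8, 29.6 and 42.4 CPM in primary against 45.4, 45.1 and 43.6 CPM in recurrent tumours, a narrow range in the second group. FEN1 stood at 50.7, 53.0 and 53.7 CPM against 52.3, 68.9 and 68.4 CPM, with recurrent replicate 1 among the primary tumours.

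Of all 44 tested members, the checkpoint kinase CHEK1 (chromosome 11, 125625136 to 125676255, plus strand) had the smallest p. It stood at 33.9, 36.6 and 35.0 CPM in primary, then 42.6, 46.7 and 49.1 CPM in recurrent tumours. Each group was narrow and the groups did not overlap. The log2 fold change was 0.39 (SE 0.13), with an unadjusted p of 0.0131 and an edgeR adjusted p of 0.521, which ranged from 0.329 to 0.989 over the tools and settings tried, while its log2 fold change ranged from 0.27 to 0.44. ATR, the kinase that activates CHEK1, stood at 47.3, 39.6 and 51.0 CPM against 59.6, 49.7 and 59.2 CPM, with overlapping groups and a log2 fold change of 0.29 (SE 0.15), or 0.19 without primary replicate 2. Of the kinases of the double-strand break response, ATM stood at 0.12 (SE 0.12) and CHEK2, which it activates, at -0.26 (SE 0.25). CHEK2 gave 8.51, 7.69 and 7.10 CPM against 4.79, 6.90 and 7.70 CPM, in overlapping groups. CHEK2 was the lowest of the 44 per transcript length but for BRCA2. It has 7 named pseudogenes in the table, 1 of them with 2 rows, all at 0 counts in every tumour, and its value could depend on how the authors' counting divided reads among near-identical copies.

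All 5 genes of homologous recombination and crosslink repair had positive log2 fold changes, with a median of 0.27, or 0.14 with the length trend subtracted. With the library name prefix as a covariate, FANCD2 stood at 0.22, BRCA2 at 0.09, BRCA1 at 0.05, BLM at 0.02 and FANCI at -0.0. BRCA2, which loads the recombinase onto broken ends, stood at 37.4, 28.7 and 37.9 CPM in primary against 37.0, 51.2 and 44.4 CPM in recurrent tumours. Its groups overlapped (0.35, SE 0.17, edgeR adjusted p = 0.615), and the difference was 0.23 without primary replicate 2 and 0.22 without recurrent replicate 2. FANCD2, the Fanconi anaemia protein placed at crosslinks, stood at 35.9, 38.8 and 34.0 CPM against 42.1, 42.1 and 46.7 CPM. Its groups did not overlap (0.27, SE 0.13, adjusted p = 0.617). The helicase BLM stood at 0.43 (SE 0.21), FANCI, the partner of FANCD2, at 0.19 (SE 0.14), and BRCA1 at 0.17 (SE 0.14). FANCI gave 90.3, 92.8 and 90.8 CPM against 91.2, 119 and 101 CPM, with the highest value in recurrent replicate 2.

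PRKDC, the catalytic subunit of the DNA-dependent protein kinase, stood at 573, 410 and 570 CPM in primary against 649, 786 and 593 CPM in recurrent tumours. The groups did not overlap, with a log2 fold change of 0.39 (SE 0.19, edgeR adjusted p = 0.616). Leaving out primary replicate 2 gave 0.24, leaving out recurrent replicate 2 gave 0.25, and subtracting the length trend gave 0.16. XRCC5, the Ku subunit that brings this kinase to a broken end, stood at 595, 799 and 691 CPM against 592, 704 and 743 CPM, with overlap (-0.03, SE 0.17). The difference between the fold changes of PRKDC and XRCC5 was not tested. PRKDC (chromosome 8, 47773108 to 47960183, minus strand) and MCM4 are annotated head to head with 1 base between their ends. PARP1, which senses single-strand breaks, stood at 231, 158 and 234 CPM against 252, 275 and 249 CPM, without overlap (0.32, SE 0.18, adjusted p = 0.644), and the difference was 0.15 without primary replicate 2. XRCC1, the scaffold that PARP1 recruits, stood at 33.0, 31.5 and 39.0 CPM against 45.7, 32.3 and 37.9 CPM, with overlap. The mismatch sensor MSH6 hardly moved, at 145, 134 and 147 CPM in primary against 142, 141 and 145 CPM in recurrent tumours (0.01, SE 0.12).

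MGMT (chromosome 10, 129467184 to 129768007, plus strand) was the 1 member that did not pass the filter. It had 0 counts in the culture, in 5 of 6 tumours and in all 3 controls, and 2 counts, or 0.0504 CPM, in primary replicate 3. The limit that a count of 0 allows (3 counts) is 0.0461 CPM in the culture, 0.118 to 0.148 CPM in the 5 tumours and 0.721 to 2.21 CPM in the controls. With so few counts of this gene, no comparison between groups was possible. Such limits and the intervals of shares reflect the counting error of 1 library alone. They may be too narrow, because PCR copies are read as separate molecules.

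Transcript length moved with these values. Primary replicate 2 had an RNA integrity number of 7.8, below the 8.1 to 8.9 of the other tumours, and structural small RNAs took most there, 14.5%. Over the 44 members, its deviation from the 6-tumour mean had a Spearman rho of -0.665 with the length of the principal transcript, and over 13081 protein-coding genes -0.495. These are correlations across genes, which share the same 6 libraries and are not independent replicates. Of the 15 longest members (4183 to 13509 bases), which hold 9 repair and 6 replication genes, primary replicate 2 was the lowest tumour in 11, and 15 had a positive log2 fold change (median 0.27). Of the 15 shortest (1359 to 2957 bases, 13 replication and 2 repair), it was the lowest in 1 and the highest in 5, and 8 were positive (median 0.01). Without primary replicate 2 the medians of the longest and shortest were 0.19 and 0.08, with 13 and 9 positive. The repair and replication medians were 0.17 and 0.07 without that tumour, and 0.24 and 0.05 without primary replicate 1. With the length trend over all protein-coding genes subtracted, the repair median was 0.13, with 10 of 14 positive, and the replication median 0.10, with 23 of 30 positive. The part of RNA integrity in these values was not tested.

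**Figure D3:**
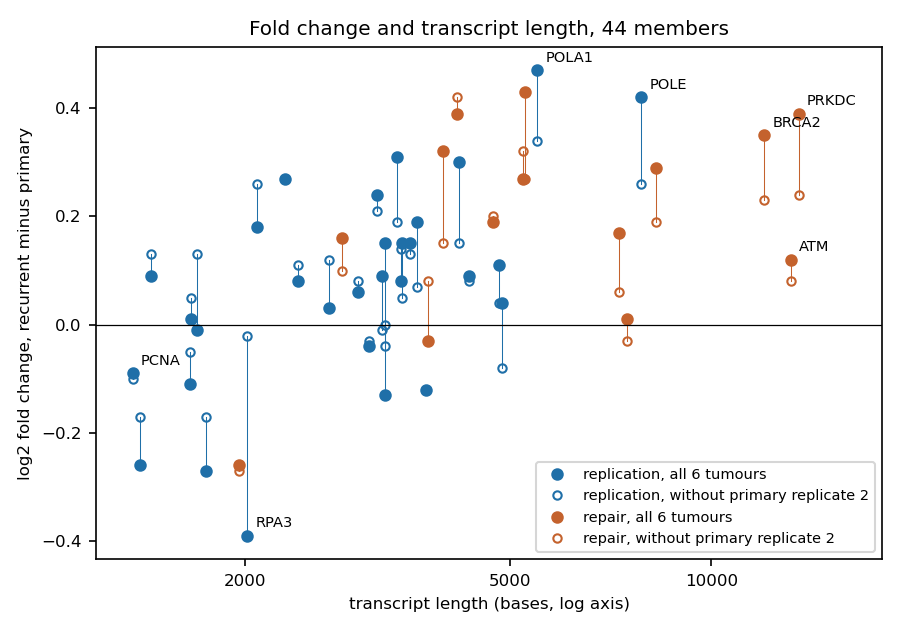
The x axis gives transcript length in bases on a log scale and the y axis the log2 fold change of recurrent minus primary tumours, for replication (blue) and repair (orange) genes. Filled points use all 6 tumours and open points leave out primary replicate 2, and lines join the same gene. The 15 longest genes have a median of 0.27 with all tumours and 0.19 without that tumour.

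Other genes of the same pathways, from textbook lists, gave 0 calls in edgeR. Of 42 other replication genes, 25 had positive and 17 negative log2 fold changes (median 0.06), of which 3 positive and 1 negative had an unadjusted p under 0.05, against 4.59% and 3.79% of all genes. Counts this small, here and in the next list, lie near that background. The smallest p-values were those of geminin (GMNN), the inhibitor of CDT1, at -0.40 (SE 0.14), of the origin-firing factor TICRR at 0.55 (SE 0.21) and of ATAD5, which unloads PCNA, at 0.46 (SE 0.18). Geminin stood at 40.6, 51.4 and 43.8 CPM in primary against 32.5, 34.7 and 35.6 CPM in recurrent tumours, without overlap, while CDT1 itself stood at 0.15 (SE 0.20). Of 66 tested other repair genes, 31 were positive and 35 negative (median -0.02, against 0.23 for the repair members), of which 4 positive and 0 negative had an unadjusted p under 0.05. Its smallest p-values were those of the end-joining polymerase POLQ at 0.63 (SE 0.19), the transcription-coupled repair factor ERCC6 at 0.46 (SE 0.15) and the checkpoint mediator MDC1 at 0.45 (SE 0.16). Of 19 tested genes of the step from G1 to S phase and of proliferation, 14 were positive (median 0.16). In edgeR, 3 with a positive and 1 with a negative fold change had an unadjusted p under 0.05. The 3 are a larger share than the 4.59% of all genes. DESeq2 and limma-voom each gave 5 of 19 at an unadjusted p under 0.05, against 9.1% and 8.86% of all genes. Both tools used the same tumours as edgeR, and the list was chosen with earlier results of these data known. These shares are therefore no independent support. None of the 19 was called. The smallest edgeR p-values were those of cyclin D1 (CCND1) at 0.59 (SE 0.18), the proliferation marker MKI67 at 0.65 (SE 0.24) and the repressor E2F7 at 0.44 (SE 0.17). MKI67 stood at 936, 535 and 1117 CPM in primary against 1252, 1470 and 1339 CPM in recurrent tumours, with its lowest value, as for POLE and POLA1, in primary replicate 2. Without that tumour MKI67 was at 0.40 and TICRR at 0.34. The edgeR adjusted p of these 9 genes ran from 0.521 to 0.572.

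Levels of different genes were compared per length, as tumour CPM per kilobase of principal transcript. XRCC5 was the highest at 183 ± 21.8 (SD, n = 6), followed by TYMS at 145 ± 10.8, PCNA at 78.4 ± 4.86 and RRM2 at 64.6 ± 5.97 CPM per kilobase. BRCA2, at 3.29 ± 0.636, and CHEK2, at 3.63 ± 0.648, were the lowest of the 44 and did not differ beyond their spread. The 6 subunits of the MCM2-7 ring, which is built from 1 copy of each, lay within 1.62-fold, from MCM5 at 32.7 ± 2.32 to MCM4 at 53.1 ± 8.9 CPM per kilobase. MCM4, MCM7 (52.7 ± 4.44) and MCM3 (50.8 ± 4.48) were within their spread of each other. The 3 RPA subunits lay within 1.51-fold. The clamp loader spanned 4.11-fold, from RFC3 at 8.57 ± 2.16 to RFC4 at 35.2 ± 2.88 CPM per kilobase. The initiation factors sat lower than the ring they load, with CDC6 at 11.1 ± 1.61 and CDT1 at 6.51 ± 1.09 CPM per kilobase.

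The culture showed where the line stands without a host brain, and as 1 library it has no replicate check. No member lay outside the range of the 6 tumours by 2-fold or more, in CPM of the library total, where 9.28% of all tested genes lay above and 5.79% below by this rule. At any fold, 5 of 30 replication genes were above all tumours and 9 below (16.7% and 30%, against 31.4% and 20.2% of all genes), and 4 of 14 repair genes were above and 2 below. On the TMM-scaled total the replication genes were 3 above and 15 below (all genes 26% and 25.5%), and the repair genes again 4 and 2. The median ratio of culture to tumour mean was 0.908 for replication genes, 1.05 for repair genes and 1.04 for all tested genes, and 0.85, 0.984 and 0.972 on the TMM-scaled total.

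**Figure D4:**
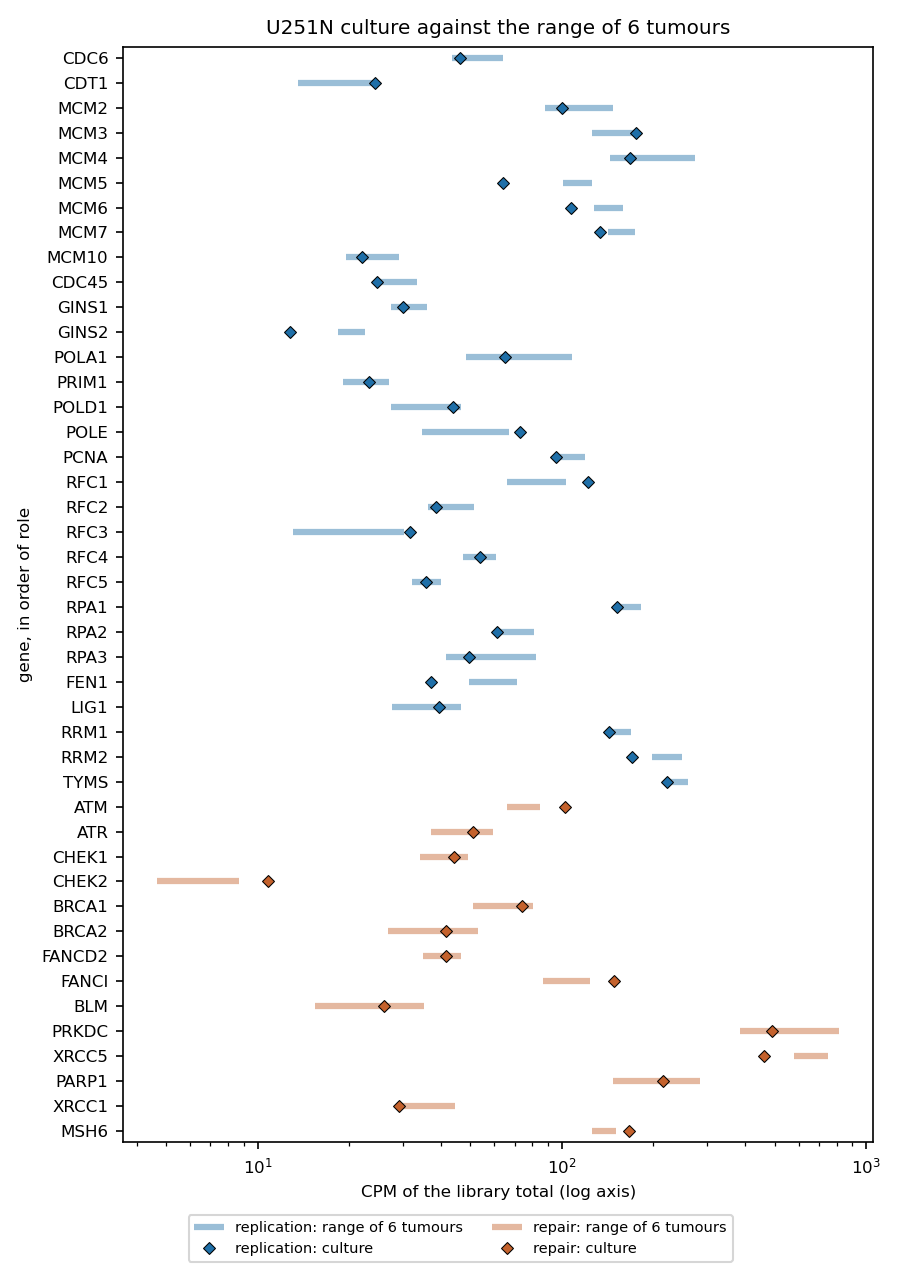
Bars span the 6 tumours and diamonds give the culture, in CPM of the library total on a log axis, for 44 members in order of role. The culture lies below the bar for MCM5, GINS2, FEN1 and XRCC5 and above it for RFC1, FANCI, CHEK2 and RFC3.

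The lowest ratios belonged to MCM5, GINS2, FEN1 and XRCC5. MCM5 stood at 64.0 CPM in the culture against 101 to 125 CPM in the tumours (ratio 0.554), while MCM3, of the same ring, stood at 176 CPM against 126 to 175 CPM (ratio 1.08), and on the TMM-scaled total within the tumours. GINS2, of the complex that activates the helicase, stood at 12.8 CPM against 18.3 to 22.6 CPM (ratio 0.621), FEN1 at 37.1 against 49.6 to 71.5 CPM (0.641) and XRCC5 at 461 against 578 to 747 CPM (0.672). The highest ratios belonged to RFC3, at 31.6 CPM against 13.0 to 30.4 CPM (1.53), CHEK2, at 10.9 against 4.67 to 8.71 CPM (1.52), FANCI, at 148 against 86.7 to 123 CPM (1.52), and RFC1, at 122 against 65.9 to 103 CPM (1.42). In primary and then recurrent tumours on the TMM-scaled total, GINS2 gave 20.5, 23.0, 17.9, 23.1, 20.0 and 19.6 CPM. RFC3 gave 18.0, 20.8, 21.3, 13.4, 29.3 and 20.8 CPM, the widest of the loader subunits as a ratio of highest to lowest. RFC1 gave 92.7, 70.5, 90.7, 74.5, 99.6 and 86.6 CPM. The 4 low genes and 4 high genes kept their side of the tumour range on both other totals. RRM2 lay below the tumours at 170 against 198 to 248 CPM, and ATM and MSH6 above, at 102 against 65.8 to 84.9 CPM and 166 against 125 to 150 CPM.

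The controls were labelled as brain without a tumour, but their graft percentages were 0.33, 0.55 and 4.9, against 29.44 to 64.4 in the tumours. By this measure none of the 3 was a graft-free background, and control replicate 3 was the furthest from one. The 45 genes summed to 107, 644 and 15617 counts in control replicates 1, 2 and 3, against 94057 to 195059 in the tumours. In CPM of the library total, the replication genes summed to 40.5, 180 and 1941 in the controls, 2567 ± 195 in primary and 2734 ± 157 in recurrent tumours (SD, n = 3 each). The repair genes summed to 38.3, 199 and 1815 in the controls, 2000 ± 185 in primary and 2292 ± 233 in recurrent tumours. On this total control replicate 3 stood close to the tumours, and the other controls far below. Structural small RNAs took 92.6% and 89.8% of the counts in those other controls. Their RNA integrity numbers were 8.7 and 6.1, the second being the lowest of the 10 libraries. In CPM of the counts outside structural small RNAs, the replication genes summed to 549, 1755 and 2841 in the controls and 2770 to 3145 in tumours. The repair genes summed to 519, 1939 and 2658 in the controls and 2099 to 2731 in tumours. The most abundant member in each control was PRKDC, with 21, 113 and 2628 counts, and 15, 5 and 1 members had no count.

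**Figure D5:**
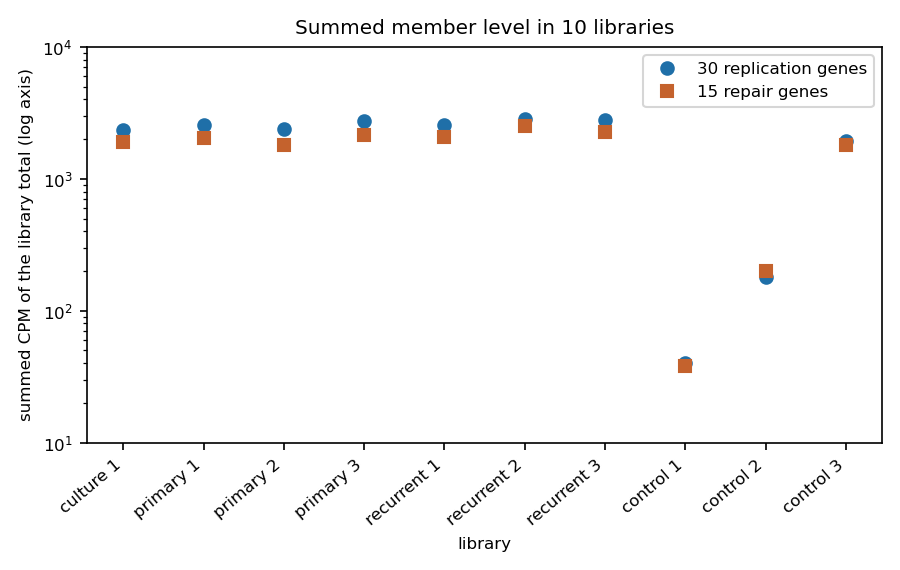
Points give the summed CPM of the library total, on a log axis, of the 30 replication genes (circles) and 15 repair genes (squares) in each of 10 libraries. Control replicates 1 and 2 lie far below all other libraries, while control replicate 3 reaches 1941 and 1815 CPM. The library total includes structural small RNAs, which took 92.6% and 89.8% of the counts in control replicates 1 and 2.

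As a share of the counts outside structural small RNAs, the 45 genes took 0.107% (Wilson 95% interval 0.0884 to 0.129), 0.369% (0.342 to 0.399) and 0.55% (0.541 to 0.559) in control replicates 1, 2 and 3. The share was 0.507% ± 0.0192 in primary and 0.56% ± 0.0225 in recurrent tumours (SD, n = 3 each), and 0.458% (0.456 to 0.459) in the culture. With TMM scaling, which aligns each library on most of its genes, edgeR called 0 of 44 members between tumours and controls (adjusted p from 0.0597 to 0.992), with 36 of 44 at a positive log2 fold change, against 62.3% of all genes. Of all 16389 genes tested, 0.927% were called higher and 4.5% lower in tumours. Without control replicate 3, 8 members were called higher in tumours, where 7.34% of all genes were called higher. These were CDT1, PCNA, RFC4, RPA3, FEN1, RRM2, TYMS and PARP1. They had 0 to 19 counts in each remaining control. CDT1 and RFC4 had 0 in both, RPA3 had 0 and 1, PCNA 0 and 9 and FEN1 1 and 3. Without the tumours' counts these genes would not have passed the filter. Leaving out control replicate 1 or 2 instead called 0 members. With no filter on low counts 1 member, RPA3, was called higher, where 1.14% of all genes were.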

How the data were processed

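The submitters' processing notes name STAR, Salmon 1.10.3, DESeq2 and the GRCh38 build, without roles or an annotation release. Per the labels' protocols, libraries were stranded and depleted of ribosomal RNA; xengsort estimated the graft percentage of each, and the sources used here do not say which read classes were counted. The authors deposited unscaled estimated counts for 62754 genes in 10 libraries. GENCODE release 29 matched 58261 of them and gave gene types, GRCh38 coordinates (1-based) and APPRIS principal transcript lengths; the authors' release may differ. Structural small RNA genes (7589) were set by type and name.

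Estimated counts were rounded. Both contrasts (recurrent minus primary, tumours minus controls) used edgeR 4.0.16 under R 4.3.3: TMM factors, filterByExpr, then a quasi-likelihood test without covariates, its p-values adjusted by Benjamini-Hochberg over every gene tested (threshold 0.05). Each SE is |log2 fold change| over the root of F. CPM refers to the TMM-scaled total in the comparison of tumours and to the library total for the culture and controls. DESeq2 1.42.0, RLE scaling, no filter and structural small RNAs left out were alternatives in both contrasts. Recurrent against primary also had limma 3.58.1 (voom), the graft percentage as a covariate and each tumour left out in turn. In tumours against controls, only the controls were left out in turn. On simulated counts for recurrent against primary (15696 genes), edgeR recovered 96 of 100 changes of 1 and 100 of 100 changes of 2 on the log2 scale. It called 16 unchanged genes. The simulation gave every gene the same dispersion and placed changes only in well-counted genes, so these rates need not hold for the tumours. Changes as small as the members' were not simulated. Groups came from the treatment label, and replicates were numbered in record order. The genes given in every library are the 2 with the smallest p in each role, and the 4 highest and 4 lowest culture ratios; MCM3, RRM2, ATM and MSH6 in the culture, and the other members with values, were chosen after their values were seen. The members and lists were chosen with earlier results of these data known.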

Additional observations from a re-analysis of the deposited data

How the results depend on the processing

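The count of genes called between recurrent and primary tumours was 1 in edgeR, 105 in DESeq2, 0 in limma-voom, 411 with no filter on low counts, 0 after fitting the graft percentage and 4 after fitting the library name prefix, and 0 to 23 with 1 tumour left out. No member was called in DESeq2 or limma-voom. The replication median of 0.09 was -0.01 with the prefix and 0.05 to 0.11 with 1 tumour left out. The repair median of 0.23 was 0.31 with the graft percentage, 0.13 with the length trend subtracted, 0.09 with the prefix and 0.17 to 0.26 with 1 tumour left out. The length trend, the prefix and the culture rule at any fold were chosen after seeing the data. Tumours against controls gave 889 calls in edgeR, 1975 in DESeq2, 2125 with no filter and 389 to 2644 with 1 control left out. Members outside the tumour range in the culture were 0 by the 2-fold rule under every total and with any tumour left out, and at any fold 20 by library total, 24 by TMM-scaled total and 22 without structural small RNAs. Of 420 values for 30 single genes, 12 changed sign, from main values between -0.11 and 0.08 except FEN1: with the length trend subtracted RFC5 (0.02), PCNA (0.07) and MSH6 (-0.14), with the prefix RRM2 (-0.08) and FEN1 (-0.004, from 0.27), with the graft percentage RRM1 (0.05) and XRCC5 (0.03), without primary replicate 2 XRCC5 (0.08) and MSH6 (-0.03), without primary replicate 3 RRM1 (0.0017), without recurrent replicate 1 XRCC5 (0.05) and without recurrent replicate 3 MSH6 (-0.01). The cause was not tested. No paired analysis was possible because the labels give no replicate numbers that tie tumours across groups. In control replicates 1 and 2, 43 and 25 members had fewer than 10 counts, which limits any member's value there.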
